A study of Mus musculus with 6 samples.

Results

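The genes described here are the corticosteroid receptors and a set of genes that glucocorticoids are known to induce, in hippocampal RNA from mice given repeated injections. They are the rows of the gene table named *Nr3c1*, *Nr3c2*, *Fkbp5*, *Sgk1*, *Tsc22d3*, *Hsd11b1*, *Zbtb16*, *Errfi1* and *Pdk4*, chosen by symbol. All 9 were found among the 55421 genes of the table, and all 9 passed the filter on low counts that left 17069 genes. The samples were hippocampi of wild-type male C57BL/6N mice, 8 to 10 weeks old when used. In the SP group, 3 mice received substance P (SP, 10 µM, 100 µL) under the skin for 14 days, and in the vehicle group 3 mice received the same volume of saline by the same route. Both groups were therefore injected, and no uninjected group was analysed here. Each mouse gave 1 stranded mRNA library of 22349964 to 27605935 estimated counts, and every direction below is SP against vehicle as the deposited labels assign the mice. No value in the files checks independently which mice received SP. The paper, however, names *Mag* and *Mbp* among the genes lower in SP mice. Under the deposited labels both were higher in SP mice, with log2 fold changes of 0.37 and 0.38 (FDR 0.350 and 0.415). The reason for this difference was not tested, and if the labels were exchanged every direction given here would turn. The interval between the last injection and collection of the tissue is not given in the sources used here.

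Corticosterone, the main glucocorticoid of the mouse, acts through a pair of nuclear receptors. The mineralocorticoid receptor binds the hormone with high affinity and is abundant in hippocampal neurons, while the glucocorticoid receptor binds it with lower affinity and is engaged as hormone levels climb at the daily peak or under stress. The bound receptors leave a chaperone complex, enter the nucleus and bind palindromic DNA elements, and a set of genes induced in this way, among them *Fkbp5*, *Sgk1* and *Tsc22d3*, is widely used as a readout of glucocorticoid exposure in brain tissue.

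To show what such an element looks like at the genes measured here, RefSeq promoter windows on GRCm38.p6, each from 250 bases before to 50 bases after an annotated start, were searched for the receptor palindrome, for its looser core and for the 6-base site TGTTCT. The palindrome is AGAACA followed by any 3 bases and TGTTCT, and the core is GNACA followed by any 3 bases and TGTNC. Both strands were searched, and each palindrome contains a core and the 6-base site. Windows were found for 7 of the 9 genes, *Hsd11b1*, *Errfi1*, *Pdk4*, *Nr3c2*, *Sgk1*, *Fkbp5* and *Tsc22d3*, and not for *Nr3c1* and *Zbtb16*. The palindrome occurred in 3 of 32851 windows (0.00913%), and 1 of these belonged to *Sgk1*. The core occurred in 0.475% of all windows and in 1 of the 15 windows of these genes, again that of *Sgk1*. The 6-base site occurred in 19.0% of all windows and in 4 of the 15, which belonged to *Sgk1* and *Tsc22d3*. The stretches below are shown because *Sgk1* and *Tsc22d3* were the members with a match, and *Mt1*, an induced gene outside the set, was chosen after its values were seen. Of the same list, *Txnip*, *Map3k6* and *Fam107a* also held a core, and their log2 fold changes were 0.11, 0.013 and 0.039 (FDR 0.618, 0.989 and 0.843). Each printed stretch has 60 bases, lies before the annotated start, overlaps no annotated exon and carries the match in capitals.
*Sgk1*, palindrome: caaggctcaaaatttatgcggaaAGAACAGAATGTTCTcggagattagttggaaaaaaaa
*Tsc22d3*, 6-base site: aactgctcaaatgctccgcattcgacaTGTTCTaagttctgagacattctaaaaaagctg
*Mt1*, core: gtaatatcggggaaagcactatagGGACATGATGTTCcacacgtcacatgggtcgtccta
The *Sgk1* stretch is chr10:21993678-21993737 on the plus strand, inside the span of the gene and upstream of an internal start, and its match begins 189 bases before that start. The *Tsc22d3* stretch is chrX:140600675-140600734 on the minus strand and its match begins 185 bases before the start. The *Mt1* stretch is chr8:94178971-94179030 on the plus strand, with the match beginning 94 bases before the start. A match describes the letters of the window and does not show that a receptor was bound there.

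The comparison of SP with vehicle used the quasi-likelihood test of edgeR, fitted over all 17069 genes in a model blocked by replicate number. Genes with FDR < 0.1 and |log2FC| > 0.3 were called differentially expressed, which 0.0293% of all tested genes were (0.0176% higher and 0.0117% lower). Of the 9 genes, 0 were called, and 0 were also called under each other fit that was run. At an unadjusted p under 0.05, 2 of the 9 passed, *Errfi1* and *Hsd11b1*, both with higher values in SP mice, where 4.48% of all tested genes passed in that direction and 5.59% in the other. In these 2 genes the groups did not overlap in expression, which was so for 9.19% of all tested genes with SP higher and 9.03% with SP lower. The difference had the same sign in all 3 replicate pairs for *Errfi1* and *Hsd11b1*, higher, and *Pdk4*, lower, against 33.1% of all tested genes. For *Errfi1* and *Hsd11b1* the separate groups already fix that sign. The log2 fold changes of the 9 genes ranged from -0.11 to 0.26 with a median of 0.10, which was 0.15, 0.048 and 0.042 without replicates 1, 2 and 3, and the median of all tested genes was 0.0015. Within replicate numbers 1, 2 and 3 the median difference of the 9 genes was -0.038, 0.23 and 0.084 on the log2 scale. Taken alone, a gene measured in 3 against 3 mice can reach no p under 0.1 in the two-sided exact permutation test.

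Several facts of the libraries bear on these values. Markers of dentate granule, CA1 and CA3 cells were detected, and 0 of these 13 genes were at 0 throughout. Summed over 10 oligodendrocyte markers, expression was 4334 to 4871 CPM in vehicle mice and 4977, 5524 and 7126 CPM in SP 3, SP 1 and SP 2. All 10 markers had positive log2 fold changes, as 8614 of the 17069 tested genes did. Within replicate numbers 1, 2 and 3 their median difference was 0.32, 0.68 and 0.0315 on the log2 scale. CPM are counts scaled to a common library size after TMM normalization. The 8 choroid plexus markers summed to 178 CPM in SP 1 and to 2823 to 4797 CPM in the other 5 libraries, and *Ttr*, the most abundant of them, had 125 CPM in SP 1. The 5 dentate granule cell markers summed to 206 to 218 CPM in vehicle mice and to 192, 272 and 307 CPM in SP 3, SP 1 and SP 2. The CA3 marker sums were 151 to 169 CPM in vehicle and 172 to 186 CPM in SP mice. Sums of astrocyte, CA1, microglia, endothelial, mural, blood, thalamic and neocortical cell markers overlapped between the groups, with blood markers highest in SP 3 at 238 CPM. Striatal neuron markers summed to 105 to 108 CPM in vehicle and 97.9 to 102 CPM in SP mice, and leptomeningeal markers to 89.9 CPM in SP 2 against 131 to 162 CPM elsewhere. In bulk tissue, fewer cells of a type and less RNA per cell cannot be told apart.

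**Figure D1:**
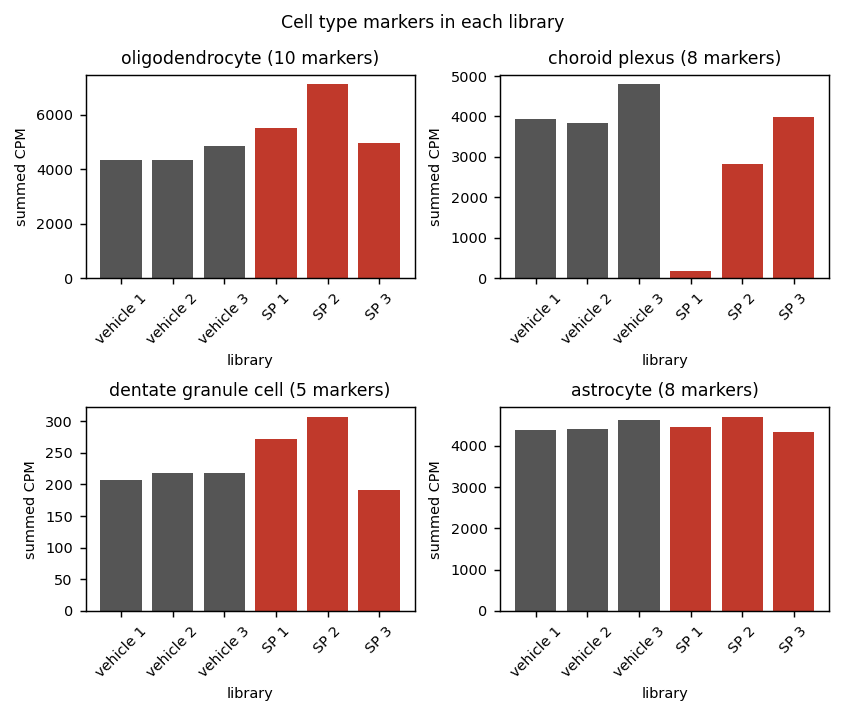
Summed CPM of cell type markers (vertical axes, linear from 0) in each of the 6 libraries (horizontal axes), with vehicle in grey and SP in red. Oligodendrocyte markers reach 7126 CPM in SP 2, choroid plexus markers drop to 178 CPM in SP 1, and astrocyte markers lie between 4333 and 4699 CPM in every library.

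The receptors come first. *Nr3c1* (ENSMUSG00000024431, minus strand of chromosome 18 from 39410545 to 39519421 in GRCm38, the build of all positions here) encodes the glucocorticoid receptor. It was measured at 85.1, 95.5 and 91.8 CPM in vehicle mice and 88.1, 86.4 and 90.1 CPM in SP mice. All 3 SP values lay within the vehicle range. The means were 90.8 ± 5.25 and 88.2 ± 1.83 CPM (SD, n = 3 mice each), a log2 fold change of -0.041 (standard error 0.0581, 95% interval -0.18 to 0.095, FDR 0.853). The difference was smaller than the spread among vehicle mice, and it was 0.011 without replicate 2.

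*Nr3c2* (ENSMUSG00000031618, chromosome 8 from 76899442 to 77245012, plus strand) encodes the mineralocorticoid receptor. It had 163, 174 and 189 CPM in vehicle mice and 180, 220 and 183 CPM in SP mice. Only SP 2 exceeded the vehicle range, and SP 2 was also the library with the highest sums of oligodendrocyte and dentate granule cell markers, whose part in the result was not tested. The means were 175 ± 13.0 and 194 ± 22.3 CPM (SD, n = 3 each), a log2 fold change of 0.15 (standard error 0.0756, 95% interval -0.031 to 0.32, FDR 0.561). This value was 0.048 without replicate 2 and 0.24 without replicate 3. An exon of *Gm10649*, on the opposite strand, overlaps an exon of *Nr3c2*, and whether strand was used in counting is not given in the sources used here.

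The balance of the receptors within a library does not depend on library size. The ratio of *Nr3c2* to *Nr3c1* in CPM was 1.91, 1.82 and 2.06 in vehicle mice and 2.05, 2.55 and 2.03 in SP mice. SP 2 stood above the other 5 libraries, and the other SP values lay just inside the top of the vehicle range. The log2 ratio differed by 0.19, from 0.95 ± 0.089 to 1.13 ± 0.19 (SD, n = 3 each; two-sided exact permutation test, p = 0.3). The difference was 0.097, 0.49 and -0.022 within replicate numbers 1, 2 and 3, and 0.038 without replicate 2.

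Compared per length, as CPM per kilobase of merged exons in GENCODE M21, *Nr3c2* had the highest level of the 9 genes and *Pdk4* the lowest. *Nr3c2* was at 28.5 ± 3.00 and *Nr3c1* at 11.7 ± 0.494 CPM per kilobase (SD over 6 libraries), and their ranges did not touch. *Sgk1*, *Errfi1* and *Zbtb16* followed at 11.7, 10.6 and 9.36, then *Tsc22d3* at 8.02, *Hsd11b1* at 5.85, *Fkbp5* at 4.97 and *Pdk4* at 3.19 CPM per kilobase. Between neighbours in this order the ranges over libraries were separate only for *Nr3c2* above *Nr3c1*, *Tsc22d3* above *Hsd11b1* and *Fkbp5* above *Pdk4*. With the longest coding transcript as the length, *Nr3c2* stayed highest and *Pdk4* lowest, whereas *Nr3c1* moved from place 2 to 5 and *Hsd11b1* from 7 to 4, so the order between them depends on which transcripts are in use.

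**Figure D2:**
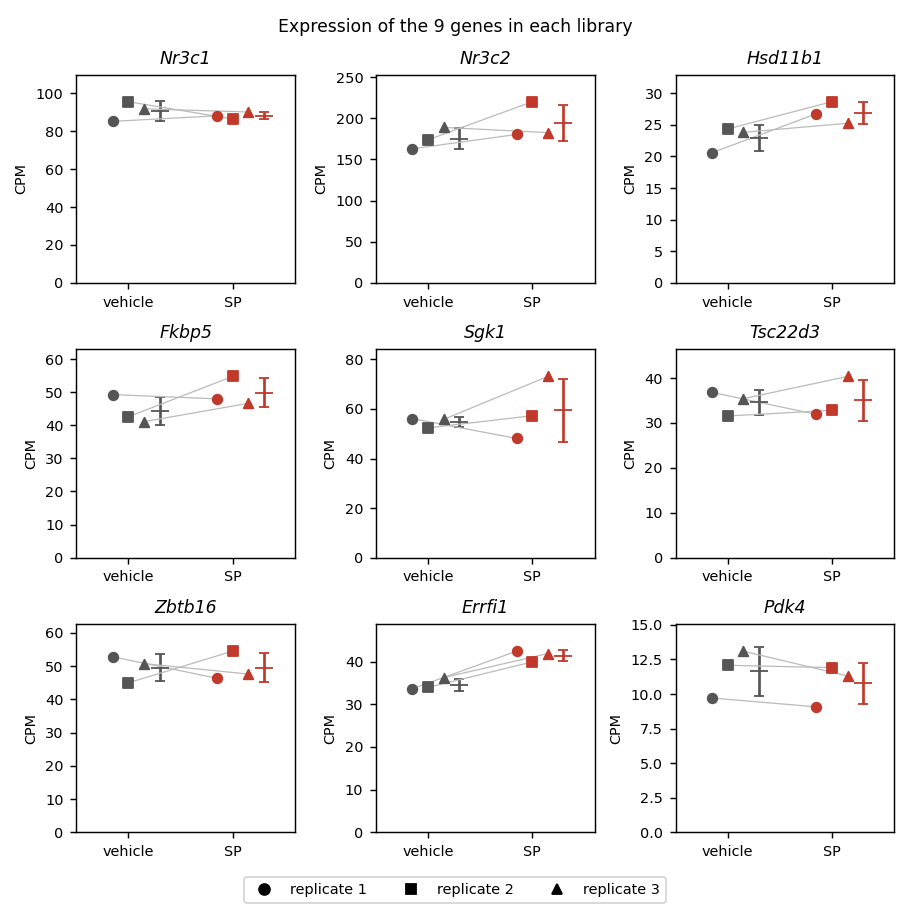
Expression in CPM (vertical axes, linear from 0) of the 9 genes in each library, with vehicle in grey and SP in red; symbols mark the replicate number, thin lines join libraries with the same number, and the bars to the right give the mean ± SD over 3 mice. The groups are separate for *Errfi1* and *Hsd11b1* and overlap for the other 7 genes, and *Sgk1* runs from 48.1 to 73.1 CPM among the SP libraries.

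*Hsd11b1* (ENSMUSG00000016194, chromosome 1 from 193221634 to 193264075, minus strand) encodes the reductase that regenerates active corticosterone from its inert form inside cells, and thereby sets how much hormone reaches the receptors. It had 20.6, 24.3 and 23.8 CPM in vehicle mice and 26.7, 28.6 and 25.2 CPM in SP mice. Every SP library was above every vehicle library, with the narrowest gap between vehicle 2 and SP 3. Among SP libraries the order was SP 2, SP 1 and SP 3, as for the oligodendrocyte and dentate granule cell marker sums. The part of tissue makeup in the result was not tested. The means were 22.9 ± 2.03 and 26.9 ± 1.71 CPM (SD, n = 3 each), a log2 fold change of 0.23 (standard error 0.0789, 95% interval 0.046 to 0.42, FDR 0.426), and the gene was higher in 3 of 3 pairs by 0.37, 0.23 and 0.084. The exact permutation test gave p = 0.1, the smallest it can give. Separate groups fix both this p and the sign in every pair, so neither adds to the separation. Without replicate 1 the log2 fold change was 0.16. Over the other fits run it lay between 0.16 and 0.30, and its FDR between 0.316 and 0.9997. Its unadjusted p was not under 0.05 with DESeq2 and the replicate block, without replicate 1, or without SP 2 in a fit with no block.

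*Fkbp5* (ENSMUSG00000024222, chromosome 17 from 28399094 to 28517527, minus strand) encodes a co-chaperone that lowers the hormone affinity of the glucocorticoid receptor and is itself induced by it, a short feedback loop. It was measured at 49.3, 42.6 and 41.1 CPM in vehicle mice and 48.0, 54.8 and 46.7 CPM in SP mice. Vehicle 1 was above 2 of the 3 SP libraries, so the groups overlapped. The log2 fold change was 0.17 (standard error 0.0827, 95% interval -0.024 to 0.36, FDR 0.541). It was 0.27 without replicate 1 and 0.072 without replicate 2, and SP 2 again held the highest value.

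Among the induced kinases, *Sgk1* (ENSMUSG00000019970, chromosome 10 from 21882184 to 21999903, plus strand), whose promoter window holds the palindrome shown above, encodes a serine/threonine kinase that acts on ion channels and transporters. It had 56.1, 52.4 and 55.8 CPM in vehicle mice and 48.1, 57.3 and 73.1 CPM in SP mice. The SP libraries held both the lowest and the highest value, with an SD of 12.7 CPM against 2.08 CPM in vehicle mice. The log2 fold change of 0.10 (standard error 0.107, 95% interval -0.15 to 0.35, FDR 0.790) took its direction from SP 3, since it was -0.049 without replicate 3 and 0.26 without replicate 1. *Pdk4* (ENSMUSG00000019577, chromosome 6 from 5483351 to 5496309, minus strand), a kinase that switches off pyruvate dehydrogenase and thus glucose oxidation, had 9.71, 12.1 and 13.1 CPM in vehicle mice and 9.08, 11.9 and 11.3 CPM in SP mice. It was lower in 3 of 3 pairs but by as little as 0.020 in the second, and the groups overlapped (log2 fold change -0.11, standard error 0.0912, 95% interval -0.32 to 0.10, FDR 0.722). Without replicate 3 the value was -0.061, and without SP 1 alone, in a fit with no block, -0.0097.

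The transcription regulators showed differences near 0. *Tsc22d3* (ENSMUSG00000031431, chromosome X from 140539528 to 140600659, minus strand) encodes the glucocorticoid-induced leucine zipper, which restrains inflammatory transcription factors. It had 36.8, 31.6 and 35.4 CPM in vehicle mice and 31.9, 32.8 and 40.4 CPM in SP mice. SP 3 was the highest library, as for *Sgk1*, and SP 1 and SP 2 were below 2 of the 3 vehicle libraries. The fitted difference was 0.015 on the log2 scale (standard error 0.0849, 95% interval -0.18 to 0.21, FDR 0.968), and it was -0.0060 without replicate 2 and -0.078 without replicate 3. *Zbtb16* (ENSMUSG00000066687, chromosome 9 from 48654297 to 48836222, minus strand), a zinc finger repressor that responds strongly to glucocorticoids in many tissues, had 52.8, 44.9 and 50.7 CPM against 46.3, 54.5 and 47.6 CPM. The means were 49.5 CPM in both groups, the log2 fold change was -0.00072 (standard error 0.0925, 95% interval -0.22 to 0.22, FDR 0.998), and its sign turned with limma-voom and without replicate 1 or 3.

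*Errfi1* (ENSMUSG00000028967, chromosome 4 from 150853919 to 150868892, plus strand) encodes Mig6, an adaptor that binds and inhibits receptors of the EGF receptor family. It had the smallest p-value of the 9 genes, with 33.7, 34.0 and 36.3 CPM in vehicle mice and 42.4, 39.9 and 41.9 CPM in SP mice. The lowest SP library was above the highest vehicle library, and the spread within each group was narrow. The means were 34.6 ± 1.42 and 41.4 ± 1.32 CPM (SD, n = 3 each), a log2 fold change of 0.26 (standard error 0.0617, 95% interval 0.11 to 0.40, FDR 0.338), with differences of 0.33, 0.23 and 0.21 in the 3 pairs. The exact permutation test gave p = 0.1, the smallest it can give, and as for *Hsd11b1* separate groups fix this p and the sign in every pair. In SP 3, whose oligodendrocyte marker sum of 4977 CPM was close to the 4871 CPM of vehicle 3, *Errfi1* was at 41.9 CPM. Without replicate 2 its log2 fold change was 0.27. The part of oligodendrocyte RNA in the result was not tested. Over the other fits run it lay between 0.22 and 0.28, and its FDR between 0.123 and 0.829.

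A wider list of 26 other genes that glucocorticoids induce in various tissues was examined beside these 9. Of the 25 tested, 20 had positive log2 fold changes with a median of 0.14, 8 passed an unadjusted p under 0.05 with higher and 1 with lower SP values, and 0 were called. In 8 of the 25 the groups did not overlap, each time with SP higher. The shares of all tested genes in that direction were 4.48% for the unadjusted p and 9.19% for separate groups. Positive log2 fold changes were found in 8614 of the 17069 tested genes. The list was chosen with earlier results of these data known, so its contrast with all tested genes is no independent support. *Lcn2* was not tested, with at most 5 counts in any library. The median was 0.086 without replicate 3. The count of 8 was 5, 6 and 4 without replicates 1, 2 and 3, where 2.39%, 5.34% and 4.57% of all tested genes passed, and 2 with DESeq2 and the replicate block, where 1.82% did.

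The members of this list with the smallest p-values serve different functions. *Rhob*, a small GTPase of endosomal transport, had 240, 231 and 229 CPM in vehicle mice and 266, 281 and 263 CPM in SP mice (log2 fold change 0.21, standard error 0.0515, FDR 0.338). *Arrdc2*, an arrestin-domain protein, had 7.86, 8.41 and 8.02 CPM against 9.59, 10.5 and 10.6 CPM (0.33, standard error 0.0956, FDR 0.385). *Cebpd*, a transcription factor of the acute phase response, had 10.1, 10.4 and 9.54 CPM against 13.5, 12.0 and 11.8 CPM (0.31, standard error 0.0923, FDR 0.400). In all 3 genes the groups were separate. *Mt1*, a metal-binding protein whose core match is shown above, had 91.2, 85.9 and 83.2 CPM against 94.2, 106 and 102 CPM, a log2 fold change of 0.22 (FDR 0.406). In the other direction, *Dusp1*, a phosphatase that inactivates MAP kinases and is also an immediate early gene, had 16.5, 21.1 and 19.3 CPM in vehicle mice and 11.3, 11.7 and 18.6 CPM in SP mice. This amounted to -0.47 on the log2 scale (standard error 0.144, FDR 0.404), and SP 3 lay inside the vehicle range. It was called when no filter on low counts was applied.

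**Figure D3:**
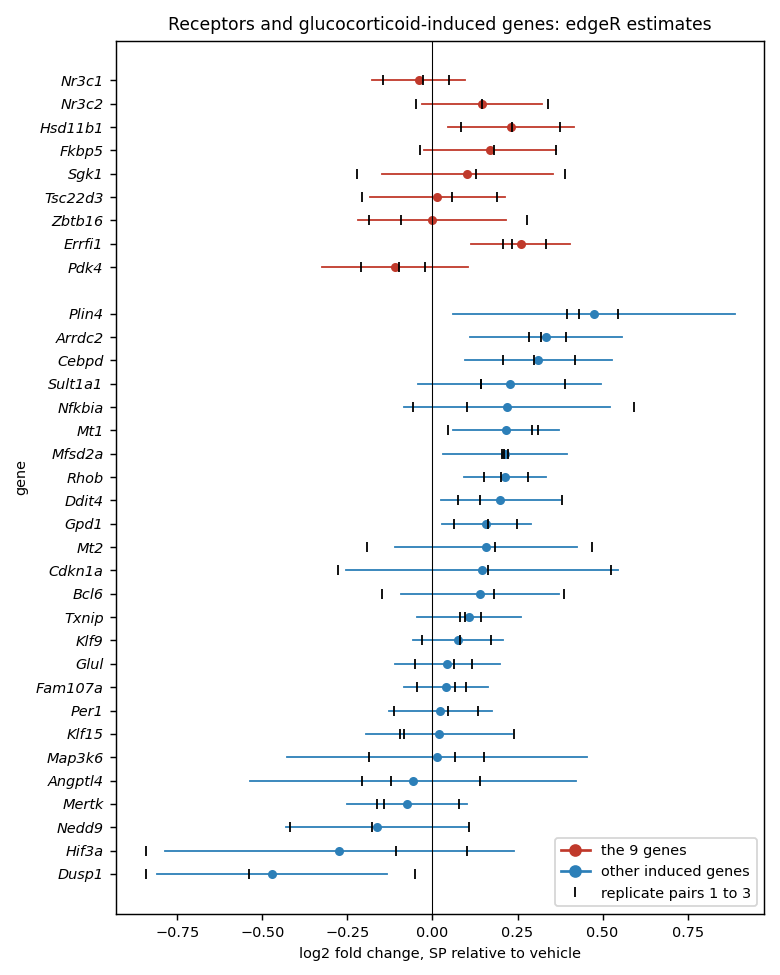
Log2 fold change, SP relative to vehicle (horizontal axis), of the 9 genes (red) and of 25 other glucocorticoid-induced genes (blue), with 95% intervals from edgeR as lines and the difference in each of 3 replicate pairs as black ticks. Of the 9 genes the intervals of *Errfi1* (0.11 to 0.40) and *Hsd11b1* (0.046 to 0.42) lie above 0 before any adjustment, while that of *Nr3c1* runs from -0.18 to 0.095.

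The SP libraries differed among themselves over these genes. Over 31 induced genes, 6 of the 9 described here and the 25 of the list, SP 2 and SP 3 each held the highest value of 11 genes and SP 1 that of 4, where they held it for 24.4%, 14.6% and 16.8% of all tested genes. SP 1 held the lowest value of 5 of the 31 genes and SP 3 that of 1, against 18.9% and 14.4% of all tested genes. Of the 31 genes, 24 had positive log2 fold changes, against 8614 of the 17069 tested genes. In all 3 pairs, 11 of the 31 were higher and 2 were lower, where 16.4% and 16.7% of all tested genes were. All 31 were chosen with earlier results of these data known, so these counts are no independent support. Without replicate 3 the number with positive log2 fold changes was 18.

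**Figure D4:**
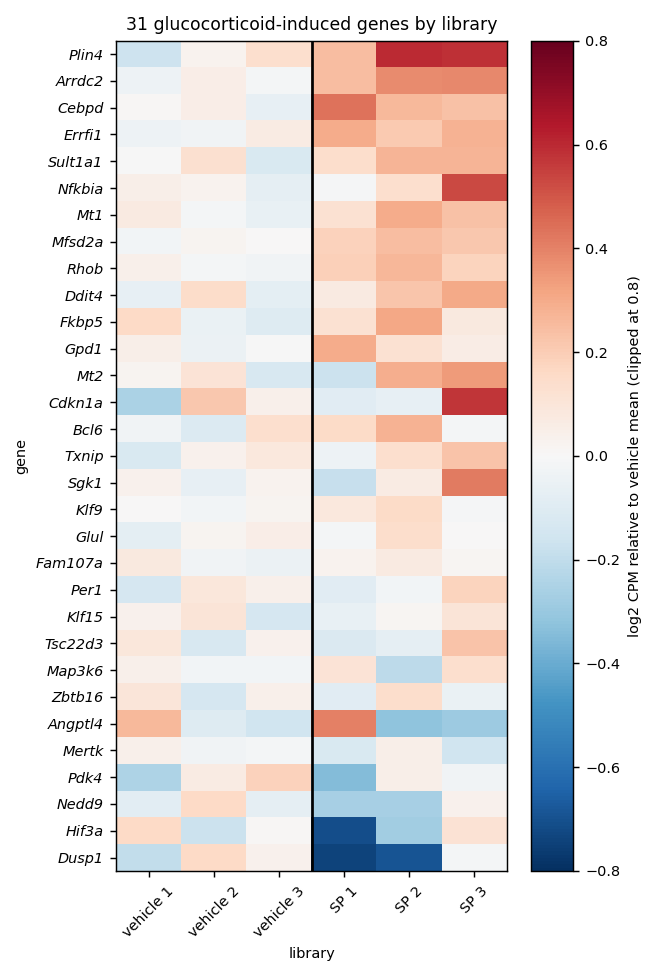
Log2 CPM relative to the vehicle mean (color, clipped at 0.8) of 31 glucocorticoid-induced genes (rows, ordered by log2 fold change) in the 6 libraries (columns). Most upper rows are red in all 3 SP libraries, whereas *Sgk1* and *Tsc22d3* are red in SP 3 and blue or pale in SP 1 and SP 2.

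A list of 14 chaperones and co-chaperones held those that keep the receptors ready for hormone and some related genes. Of all tested genes, 4.48% passed an unadjusted p under 0.05 with higher and 5.59% with lower SP values, which holds for each list below. All 14 were tested, with a median log2 fold change of 0.0074, and 0 passed that p with higher and 1 with lower SP values. That was *Hsp90b1*, the Hsp90 of the endoplasmic reticulum, with 345, 316 and 324 CPM in vehicle mice and 296, 286 and 299 CPM in SP mice (log2 fold change -0.16, standard error 0.0505, FDR 0.415). The cytosolic forms that bind the receptors, *Hsp90aa1* and *Hsp90ab1*, had log2 fold changes of -0.0027 and 0.021, and *Fkbp4*, a co-chaperone related to *Fkbp5*, had 0.017.

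Other genes that handle or bind steroids gave mostly negative log2 fold changes, where 8614 of the 17069 tested genes had positive ones. Of 8 genes of steroid metabolism and efflux, 7 were tested, 0 passed an unadjusted p under 0.05 in either direction and the median was -0.11, from -0.21 for the drug efflux pump *Abcb1b* to 0.034 for the hydroxylase *Cyp7b1*. *Hsd11b2*, which inactivates corticosterone, had 0 counts in all 3 vehicle mice and 1 in all 3 SP mice, under the 3 counts that a count of 0 allows. *H6pd*, which supplies the cofactor of the *Hsd11b1* product, had a log2 fold change of -0.15 (FDR 0.656), opposite in sign to that of *Hsd11b1*. Of 4 other steroid receptors, with a median of -0.25, or -0.011 without replicate 2, 0 passed with higher and 1 with lower SP values. This was the progesterone receptor *Pgr*, with 19.0, 17.2 and 19.7 CPM in vehicle mice and 16.2, 13.9 and 15.2 CPM in SP mice (-0.31, standard error 0.0781, FDR 0.351). Its groups were separate, which was so for 9.03% of all tested genes with SP lower.

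Of 12 genes of the corticotropin-releasing hormone, vasopressin and melanocortin axis, 9 were tested, with a median log2 fold change of -0.20, or -0.089 without replicate 2, and 1 passed an unadjusted p under 0.05 with higher and 2 with lower SP values. For *Pcsk1*, a protease that processes prohormones, it was -0.28 (standard error 0.0941, FDR 0.424). *Crhr2*, a receptor of corticotropin-releasing hormone and urocortins, had 5.59, 7.36 and 6.64 CPM in vehicle mice and 2.69, 3.28 and 6.83 CPM in SP mice (-0.69, standard error 0.240, FDR 0.430; called without a filter on low counts). It was lowest in SP 1, the library with a choroid plexus marker sum of 178 CPM, and in SP 3 it was within the vehicle range; the part of choroid plexus tissue in this result was not tested. *Avp*, the vasopressin precursor, had only 10, 8 and 0 counts in vehicle mice and 27, 13 and 10 counts in SP mice (1.57, standard error 0.593, FDR 0.450).

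Relatives and partners of the induced genes were examined in the same way. Of 9 kinases and partners of SGK1, 1 passed an unadjusted p under 0.05 with higher and 0 with lower SP values, with a median of 0.047. It was *Ndrg1*, whose product SGK1 phosphorylates and which is abundant in oligodendrocytes, with 98.9, 97.5 and 103 CPM in vehicle mice and 121, 125 and 113 CPM in SP mice (0.26, standard error 0.0596, FDR 0.330). Its order among the SP libraries was that of the oligodendrocyte marker sums, whose part in the result was not tested. A list of 10 genes held the EGF receptor family, on which the *Errfi1* product acts, with ligands and Sprouty feedback inhibitors. Of these, 1 passed with higher and 3 with lower SP values, against 4.48% and 5.59% of all tested genes. The median was -0.18, or -0.044 without replicate 1. *Erbb4*, a neuregulin receptor of interneurons, had 68.4, 69.3 and 77.7 CPM against 62.0, 48.7 and 58.4 CPM (-0.35, standard error 0.0783, FDR 0.315), and it was called when no filter was applied and by DESeq2 fitted with no block. *Egfr* had 17.5, 17.9 and 19.6 CPM against 14.5, 15.5 and 17.5 CPM (-0.21, FDR 0.432), and *Nrg1*, a ligand of ERBB receptors, had a log2 fold change of -0.47 (FDR 0.417). *Erbb3*, a receptor of oligodendrocyte lineage cells, had 12.6, 13.1 and 13.8 CPM against 17.9, 23.1 and 13.2 CPM (0.43, standard error 0.155, FDR 0.436). SP 2 held its highest value, as it did that of the oligodendrocyte sum, and the part of oligodendrocyte RNA in this result was not tested.

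Of 10 pyruvate dehydrogenase kinases, phosphatases and subunits, 0 passed with higher and 1 with lower SP values, and the median was -0.024. It was *Pdk1* (-0.14, standard error 0.0542, FDR 0.462), while *Pdk2* and *Pdk3* had log2 fold changes of 0.039 and -0.084. Of 6 TSC22 and FKBP relatives, 1 passed with higher and 0 with lower SP values, with a median of 0.075. This was *Fkbp1a*, the binding protein of the drug tacrolimus, with 452, 470 and 479 CPM in vehicle mice and 510, 518 and 509 CPM in SP mice (0.13, standard error 0.0537, FDR 0.470), and the *Tsc22d3* relatives *Tsc22d1*, *Tsc22d2* and *Tsc22d4* had 0.011, 0.072 and 0.085.

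For 3 of the 9 genes, the tested genes with a mean of at least 10 CPM whose log2 CPM was most alike over the 6 libraries were found by Pearson's r. For *Nr3c1* these were *Lhfp*, *Yeats4* and *Fem1c* with r of 0.971, 0.965 and 0.962, and 30 of 10343 genes had r over 0.9. For *Nr3c2* they were *Xpo6*, *Atxn10* and *Tspan2* with 0.995, 0.986 and 0.986, and 233 genes had r over 0.9. For *Errfi1* they were *Usp30*, *Gas2l1* and *Sppl2b* with 0.987, 0.980 and 0.979, and 112 genes had r over 0.9. These values describe 6 libraries that share their groups, replicate numbers and tissue makeup.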

How the data were processed

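Hippocampal RNA of 3 mice labelled SP and 3 labelled vehicle was analysed. The authors ran TrimGalore, STAR alignment to GRCm38 and Salmon, and the deposited values are estimated counts per gene, scaled for neither library size nor gene length. Versions and the annotation release are not given in the sources used here. Of the values, 9.77% were not whole, and counts were rounded. Columns were matched to mice by the labels.

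Genes were filtered with filterByExpr (minimum count 10, minimum total 15), normalized by TMM and tested with glmQLFit and glmQLFTest of edgeR 4.0.16 in R 4.3.3, with the replicate number, which the labels call a batch, as a block because the study adjusted for replicates. Deviations of same-numbered mice correlated across genes with r of 0.014, -0.066 and 0.073. P-values were adjusted over all tested genes by the Benjamini-Hochberg method (FDR). Standard errors and 95% intervals came from the same fit and are not adjusted. Differences within pairs used log2 CPM with a prior count of 2. Alternatives used DESeq2 1.42.0, limma-voom (limma 3.58.1), other normalizations and filters, no block, and each replicate left out, and the fits were tested on simulated data. A count of 0 allows 0.109 to 0.135 CPM, 3 counts of a library, for counting error only. Positions and lengths are those of GENCODE M21 (GRCm38), where 55154 of 55421 identifiers were found, and promoter sequences those of RefSeq.

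The 9 genes, 10 lists of 111 related genes and 14 lists of 88 cell type markers were chosen with earlier results of these data known. The result of 1 related list is not reported here. From each related list, up to 3 genes in each direction with the smallest unadjusted p under 0.05 were named, or else the lowest and highest. *Mt1*, *Txnip*, *Map3k6*, *Fam107a*, *Lcn2*, *Hsd11b2*, *H6pd*, *Hsp90aa1*, *Hsp90ab1*, *Fkbp4*, *Pdk2*, *Pdk3*, *Tsc22d1*, *Tsc22d2* and *Tsc22d4* were named after their values were seen.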

Additional observations from a re-analysis of the deposited data

How the results depend on the processing

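In every fit run, 0 of the 9 genes were called. The number of all genes called, 5 with the replicate block, was 2 without the block, 384 without a filter on low counts, 0 with at least 10 counts in every library, 36 and 133 with DESeq2 with and without the block, 2 with limma-voom, 0 at an FDR under 0.05, and 9 to 36 when a replicate number was left out. The number of the 9 genes with an unadjusted p under 0.05, 2 in the reported fit, was 4 without the filter, 1 with DESeq2 with the block, and 1 without SP replicate 2 and without the block, a fit chosen after seeing the data. That number was 2 to 3 when a replicate number was left out. No paired fit called any of the 9 genes, and neither did the fit without the block. Signs turned for 4 genes with small differences. *Zbtb16* was at 7.58e-05 with limma-voom, at 0.041 without SP replicate 1 and the block, and between -0.14 and 0.093 with a replicate number left out. The corresponding ranges were -0.085 to 0.011 for *Nr3c1*, -0.049 to 0.26 for *Sgk1* and -0.078 to 0.12 for *Tsc22d3*. *Dusp1*, *Erbb4* and *Crhr2*, of the related lists, were called without the filter, and *Erbb4* also with DESeq2 without the block. With a replicate number left out, list medians ran from -0.043 to 0.028 for chaperones, -0.058 to 0.019 for pyruvate dehydrogenase genes and 0.0040 to 0.083 for SGK1 partners. The cause of these changes was not tested. With a median standard error of 0.0906 over all tested genes, differences of the size seen in most of the 9 genes were not resolved at 3 mice a group.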
